A study of Mus musculus with 6 samples.

Results

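The 40 genes described here carry out cell proliferation. Of these, 24 act mainly in mitosis and 16 act at entry into S phase or during DNA replication. A gene was included when a probe that was not a control spot bore its symbol, either in the array files or after updating to the current RefSeq symbol, and no measured value entered that choice. The genes were covered by 74 probes, and 39 of the 40 were measured well enough to test, out of 22741 genes tested on the arrays. The exception was Ccne2, the cyclin E2 gene, whose probe was well above background on 1 array, from a C3aR-/- kidney.

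RNA from the renal cortex of diabetic mice was hybridised to 1-colour arrays, with 3 C3aR-/- samples and 3 wild-type (WT) samples. C3aR-/- mice are labelled as deficient in the receptor for C3a, a fragment of complement component C3. All mice were male and of C57BL/6 background. All ate a diet with 60% of its calories from fat from 8 weeks of age, received streptozotocin, which destroys the pancreatic beta cells that make insulin, at 60 mg/kg on 3 days after 4 weeks on that diet, and were killed 26 weeks later. Both groups are labelled diabetic, and non-diabetic mice were not analysed here. The labels do not give the mutant allele, nor whether samples were pooled, and they leave unsaid whether each replicate is its own animal. A p-value here thus sets a difference against the spread of these samples, which need not be the spread between mice.

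A dividing cell first copies its DNA and then separates the copies in mitosis. Genes for DNA replication are switched on at the end of G1 largely by E2F transcription factors. Genes for mitosis are switched on later, in G2, through promoter elements bound by NF-Y and by MuvB complexes, of which DREAM holds the genes silent in resting cells. Few tubule cells divide in a healthy adult kidney, whereas tubular injury is known to bring surviving epithelial cells back into the cycle, and leukocytes in inflamed tissue can divide as well.

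Levels are log2 signals relative to the 75th percentile of the same array, each difference is the C3aR-/- level minus the WT level, and its error is the standard error from the linear model fitted to all genes with limma. The targeted gene, C3ar1, had levels of -4.10, -4.95 and -4.69 in C3aR-/- samples, against -2.96, -3.86 and -3.62 in WT samples. Every C3aR-/- value lay below every WT value, and the difference was -1.10 ± 0.30 (adjusted p = 0.931). The probe was well above background on 2 C3aR-/- and 3 WT arrays, and whether it lies in the deleted part of the gene is not known. All 10 proximal tubule and all 6 podocyte markers listed were among the tested genes. WT replicate 1 and C3aR-/- replicate 2 stood apart from the other arrays, in opposite directions. On the first principal component of the tested genes, which held 43.1% of the variance, they lay at 50.5 and -43.1. The other arrays lay between -11.4 and 7.77. The mean of 11 markers of injured or regenerating tubule, relative to its average over the 6 arrays, was 0.79 in WT replicate 1. It was -0.48 in C3aR-/- replicate 2. The mean of 10 proximal tubule markers stood at -0.89 and 0.59 on these arrays, relative to its own average. Results are therefore given with and without WT replicate 1, and some also without C3aR-/- replicate 2.

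No proliferation gene passed a test for a difference between C3aR-/- and WT kidneys. With limma, 0 of 39 passed an adjusted p of 0.05, where 0% of all tested genes passed, and 0 had an unadjusted p below 0.05, where 4.89% of all tested genes did (2.68% lower and 2.21% higher in C3aR-/-). In 0 of the 39 were the 3 C3aR-/- values all on the same side of the 3 WT values, against 9.84% of all genes (4.19% lower and 5.65% higher in C3aR-/-). With slide row as a block, 2 of 39 had an unadjusted p below 0.05, where 7.66% of all genes did, and 0 passed the adjusted threshold. They were the mitotic genes Aurkb and Kif23, at 0.0242 and 0.0396 unadjusted in that limma fit. Without that block the smallest unadjusted p was 0.108, for the mitotic kinase gene Aurkb, and its adjusted value was 0.931. In bulk tissue such levels cannot tell apart fewer cycling cells and less RNA per cycling cell.

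The differences were small and mostly below 0. Of 24 mitotic genes 23 had a difference below 0, as had 8 of 15 S phase genes, against 43.4% of all genes. The median difference was -0.081 over the mitotic genes and -0.041 over the S phase genes, beside 0.026 over all tested genes. The direction of the medians turned when WT replicate 1 was left out. Without that array the median was 0.068 over the mitotic genes and 0.17 over the S phase genes, beside 0.022 over all genes, and a difference below 0 was left in 8 of 24 mitotic and 0 of 15 S phase genes, against 43.6% of all genes. Leaving it out makes C3aR-/- replicate 3 the single array from row 2 of the slide. Row 1 holds C3aR-/- replicates 1 and 2 and WT replicates 2 and 3. Within row 1, a split that was not planned, 17 of 24 mitotic and 1 of 15 S phase genes had a difference below 0, against 43.5% of all genes. The medians there were -0.027 and 0.11. C3aR-/- arrays weighed on the medians too: the mitotic median was -0.016 without C3aR-/- replicate 1, and the S phase median was 0.038 without C3aR-/- replicate 2.

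The intervals give, gene by gene, the range of differences compatible with these samples. Each is for 1 gene read from its brightest kept probe, and treats the samples as separate, which the labels leave unsaid. For 38 of the 39 genes the 95% confidence interval lay within a 2-fold change in either direction, and Cdc45 was the exception. Other kept probes were not counted, and the dimmer ones of Aurkb and Mcm7 given below had larger differences below 0. Over the mitotic genes the intervals reached down to -0.86 and up to 0.49 on the log2 scale.

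**Figure D1:**
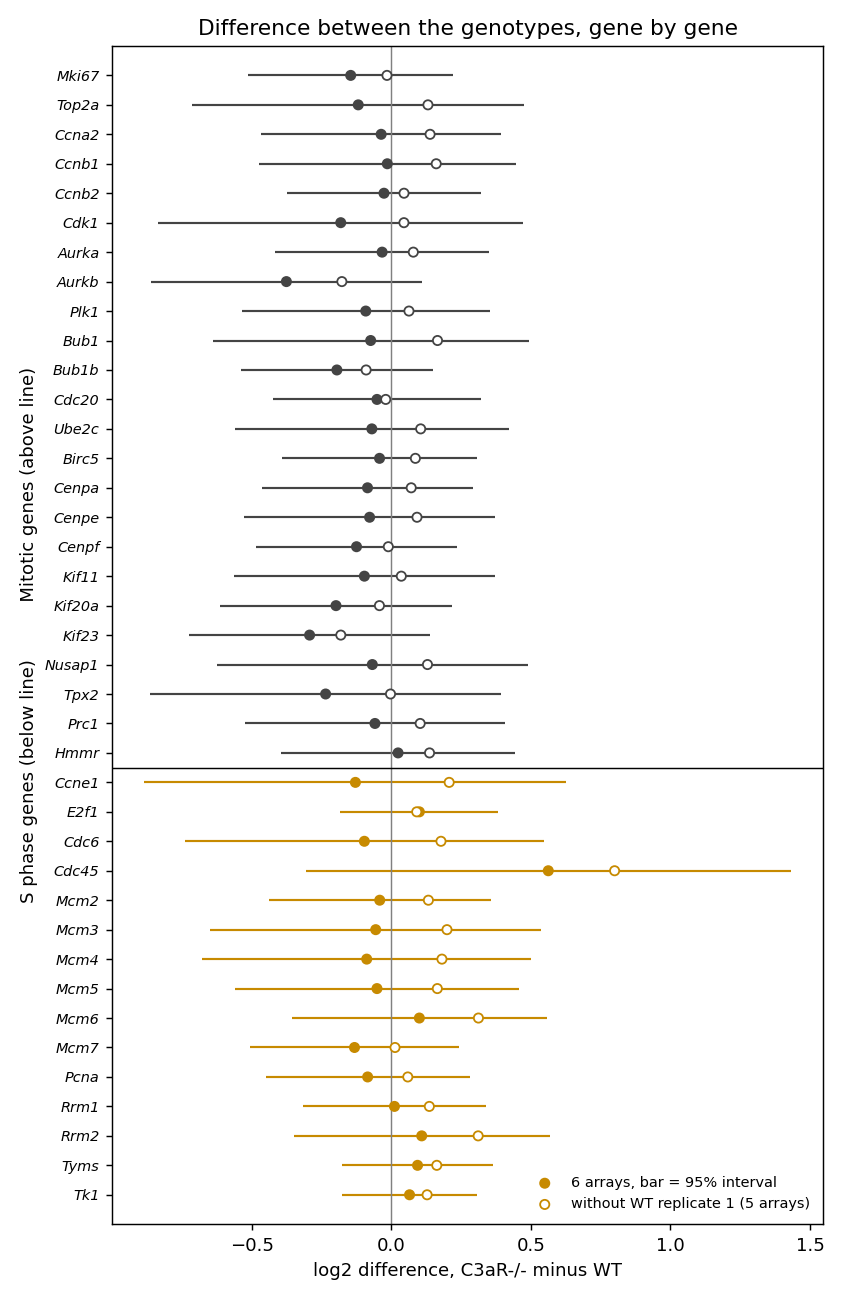
Difference between C3aR-/- and WT kidneys in log2 units for each of the 39 tested genes, mitotic above the line and S phase below it. Filled points are from all 6 arrays with 95% confidence intervals as bars, and open points leave out WT replicate 1. Every interval includes 0, and the open points lie to the right of the filled ones for 38 genes, E2f1 being the exception.

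The genes varied together from array to array. WT replicate 1 gave the highest of the 6 values for 33 of 39 genes, against 28.0% of all tested genes, and these were 21 of 24 mitotic and 12 of 15 S phase genes. The median of its level minus the mean of the other 5 arrays was 0.43, beside -0.013 over all genes. C3aR-/- replicate 3 and WT replicate 1 were the 2 highest arrays for 30 of 39 genes, against 11.2% of all genes. These same arrays were the pair placed in row 2 of the slide, and the other 4 lay in row 1, so slide row and these libraries cannot be told apart.

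Where the lowest value fell differed between the classes. C3aR-/- replicate 1 was the lowest array for 13 of 24 mitotic genes and for 0 of 15 S phase genes. WT replicate 3 was the lowest for 9 of 15 S phase genes and for 3 of 24 mitotic genes. The spread among replicates was larger in WT, where WT replicate 1 lies, in 32 of 39 genes, against 60.1% of all genes. The median SD was 0.19 in C3aR-/- and 0.30 in WT samples.

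**Figure D2:**
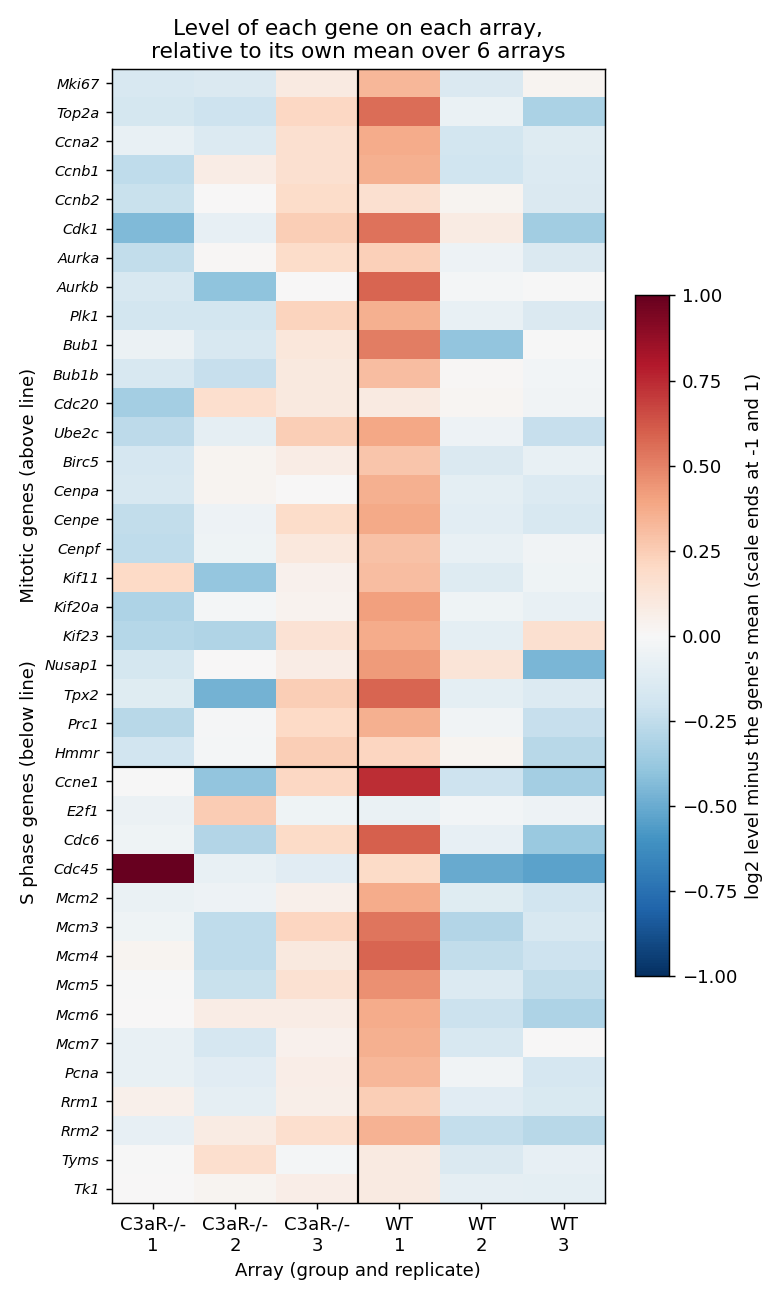
Level of each tested gene (rows) on each array (columns), as log2 units above (red) or below (blue) that gene's own mean over the 6 arrays. The colour scale ends at -1 and 1. WT replicate 1 is the reddest column, highest for 33 of 39 genes, and C3aR-/- replicate 3 is the next.

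The promoters of both classes are shown because the motifs that set the classes apart can be read from the sequence. Whether these motifs bear on the variation across arrays was not tested. RefSeq sequences (GRCm38.p6) from 250 bases before to 50 bases after the transcription start were matched for 20 of 24 mitotic and 14 of 16 S phase genes. Aurkb, Ccna2, Kif20a, Tpx2, Ccne2 and Mcm4 were not matched. Both strands were searched for the cell cycle genes homology region, CHR (TTTGAA, or its variant form TTCGAA), for the NF-Y box CCAAT, and for core E2F sites of the forms TTGGCGC, or the form TTCGCGC, or the form TTCCCGC, or the form TTGCCGC, which overlap when they lie on opposite strands of a palindromic site. A CHR together with a CCAAT box was found in 16 of 20 mitotic genes and in 3 of 14 S phase genes, against 8.61% of 27025 genes and 7.52% of 32851 promoters of this length. A CCAAT box with or without a CHR was found in 18 of 20 mitotic and 9 of 14 S phase genes, against 41.1% of genes and 37.4% of promoters. An E2F site was found in 4 of 20 mitotic and 7 of 14 S phase genes, against 10.9% of genes and 9.57% of promoters. These matches describe the sequence only and say nothing of binding in these kidneys.

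Among mitotic genes with a CHR and a CCAAT box, the promoters of the 3 with the highest mean signal are printed, from 250 bases before to 30 bases after the start. CHR and CCAAT matches on either strand are in capitals, so that ATTGG marks a CCAAT box on the opposite strand. Cdc20 lies at chr4:118437314-118437593, Mki67 at chr7:135716350-135716629 and Ccnb2 at chr9:70421525-70421804, all on the minus strand.
Cdc20: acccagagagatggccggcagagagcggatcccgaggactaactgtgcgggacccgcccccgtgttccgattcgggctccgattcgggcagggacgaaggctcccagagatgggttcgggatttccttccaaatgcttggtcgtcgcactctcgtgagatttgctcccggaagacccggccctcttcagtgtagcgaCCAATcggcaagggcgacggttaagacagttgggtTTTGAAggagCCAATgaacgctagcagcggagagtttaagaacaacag
Mki67: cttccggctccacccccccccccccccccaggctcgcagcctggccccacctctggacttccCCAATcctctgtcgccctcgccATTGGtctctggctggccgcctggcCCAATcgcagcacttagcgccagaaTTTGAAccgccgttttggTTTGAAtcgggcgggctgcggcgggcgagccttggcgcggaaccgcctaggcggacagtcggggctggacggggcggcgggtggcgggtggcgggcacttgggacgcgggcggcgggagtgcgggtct
Ccnb2: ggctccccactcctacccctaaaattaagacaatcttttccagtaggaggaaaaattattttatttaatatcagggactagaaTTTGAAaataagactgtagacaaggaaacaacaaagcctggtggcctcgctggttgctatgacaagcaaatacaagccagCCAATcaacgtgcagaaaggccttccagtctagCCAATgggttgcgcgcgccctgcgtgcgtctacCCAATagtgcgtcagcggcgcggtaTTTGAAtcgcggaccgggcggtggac

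The corresponding 3 promoters of S phase genes with an E2F site are printed with E2F matches in capitals. Mcm6 lies at chr1:128359676-128359955 and Mcm7 at chr5:138171854-138172133 on the minus strand, and Rrm2 at chr12:24708004-24708283 on the plus strand. Both Mcm promoters carry runs in capitals that are longer than a single site because matches on the 2 strands overlap.
Mcm6: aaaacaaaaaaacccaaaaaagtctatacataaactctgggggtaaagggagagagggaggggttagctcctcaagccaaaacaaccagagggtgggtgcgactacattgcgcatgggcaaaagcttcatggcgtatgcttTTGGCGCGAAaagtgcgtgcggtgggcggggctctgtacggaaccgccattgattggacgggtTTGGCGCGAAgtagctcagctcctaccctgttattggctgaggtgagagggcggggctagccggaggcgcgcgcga
Mcm7: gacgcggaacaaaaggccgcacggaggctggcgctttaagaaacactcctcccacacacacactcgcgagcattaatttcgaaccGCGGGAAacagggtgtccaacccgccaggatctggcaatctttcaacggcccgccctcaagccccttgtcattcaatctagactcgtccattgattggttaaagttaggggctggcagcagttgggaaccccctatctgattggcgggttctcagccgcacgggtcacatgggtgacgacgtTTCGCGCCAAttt
Rrm2: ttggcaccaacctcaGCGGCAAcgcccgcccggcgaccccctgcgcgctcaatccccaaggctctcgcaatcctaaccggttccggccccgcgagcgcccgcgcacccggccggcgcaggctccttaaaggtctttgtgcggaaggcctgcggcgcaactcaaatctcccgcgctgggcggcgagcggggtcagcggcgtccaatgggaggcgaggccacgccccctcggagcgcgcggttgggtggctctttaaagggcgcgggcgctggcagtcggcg

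Mki67 encodes the proliferation antigen Ki-67, which coats mitotic chromosomes and marks cycling cells. Its probe, at chromosome 7, 142881591 to 142881650 on the mm9 build of the array files, gave 1.45, 1.47 and 1.70 in C3aR-/- samples, against 1.95, 1.47 and 1.64 in WT samples. WT replicate 1 was the highest, C3aR-/- replicate 3 came next, and the groups overlapped. The difference was -0.15 ± 0.15 (adjusted p = 0.931), and without WT replicate 1 it was -0.015. Top2a, the topoisomerase that disentangles sister chromatids, gave 0.38, 0.35 and 0.76 in C3aR-/- samples, against 1.11, 0.49 and 0.24 in WT samples. The order of the 2 highest arrays was the same as for Mki67, but the lowest was WT replicate 3, and the difference was -0.12 ± 0.25.

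Cyclins A2, B1 and B2 activate Cdk1, the kinase that drives entry into mitosis. Cdk1 levels were -2.13, -1.77 and -1.45 in C3aR-/- samples, against -1.15, -1.61 and -2.04 in WT samples. They ranged as widely within each group as between them, with a difference of -0.18 ± 0.27. Ccna2 gave 0.54, 0.48 and 0.78 in C3aR-/- samples, against 0.99, 0.43 and 0.49 in WT samples. Ccnb1 gave -0.54, -0.21 and -0.13 in C3aR-/- samples, against 0.072, -0.48 and -0.42 in WT samples. For both cyclins WT replicate 1 was the highest and C3aR-/- replicate 3 the next, and the differences were -0.036 ± 0.18 and -0.014 ± 0.19. Ccnb2 gave 1.06, 1.29 and 1.47 in C3aR-/- samples, against 1.44, 1.31 and 1.14 in WT samples, and here C3aR-/- replicate 3 was the highest array. Its difference was -0.026 ± 0.14. All 4 genes had a difference below 0, and 0 of the 4 did without WT replicate 1.

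The mitotic kinases gave the largest difference among the mitotic genes. Aurkb encodes Aurora B, the kinase of the chromosomal passenger complex that corrects chromosome attachments. Its probe (chromosome 11, 68864596 to 68864655, mm9) gave -2.18, -2.42 and -2.02 in C3aR-/- samples, against -1.43, -2.04 and -2.02 in WT samples. C3aR-/- replicate 2 was the lowest and WT replicate 1 the highest, while C3aR-/- replicate 3 and WT replicates 2 and 3 lay within a few hundredths of each other. The difference was -0.38 ± 0.20, with a 95% confidence interval from -0.86 to 0.11 and an unadjusted p of 0.108. It was -0.18 without WT replicate 1. A second Aurkb probe, well above background on 1 C3aR-/- and 3 WT arrays, gave -0.51 ± 0.26. That probe met the detection filter through the WT arrays, so its difference is no independent support.

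Aurka, the gene of the spindle pole kinase Aurora A, gave 0.61, 0.87 and 1.03 in C3aR-/- samples, against 1.09, 0.80 and 0.71 in WT samples. Plk1 encodes Polo-like kinase, which acts from spindle assembly to cytokinesis, and gave 0.76, 0.76 and 1.17 in C3aR-/- samples, against 1.30, 0.87 and 0.80 in WT samples. In both, WT replicate 1 and C3aR-/- replicate 3 were the 2 highest, the groups overlapped, and the differences were -0.033 ± 0.16 and -0.091 ± 0.18.

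Bub1 and Bub1b encode kinases of the spindle checkpoint, which delays anaphase until chromosomes are attached. Bub1 gave -2.63, -2.73 and -2.46 in C3aR-/- samples, against -2.06, -2.97 and -2.58 in WT samples, so that WT held both the highest and the lowest value. Bub1b gave -2.76, -2.84 and -2.51 in C3aR-/- samples, against -2.30, -2.60 and -2.63 in WT samples. Only C3aR-/- replicate 3 reached into the WT range for Bub1b. The differences were -0.074 ± 0.23 for Bub1 and -0.19 ± 0.14 for Bub1b.

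Cdc20 activates the anaphase-promoting complex, and Ube2c is the ubiquitin-conjugating enzyme that works with that complex. Cdc20 gave 1.36, 1.87 and 1.80 in C3aR-/- samples, against 1.79, 1.72 and 1.67 in WT samples. C3aR-/- held both ends of its range, and its WT SD of 0.061 was the smallest of the mitotic genes in either group. Ube2c gave 0.42, 0.59 and 0.92 in C3aR-/- samples, against 1.06, 0.63 and 0.45 in WT samples. The differences were -0.051 ± 0.15 for Cdc20 and -0.069 ± 0.20 for Ube2c.

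Birc5 encodes survivin, a partner of Aurora B, and Cenpa, Cenpe and Cenpf encode the histone variant of centromeres, a kinetochore motor and a kinetochore protein. Birc5 gave 2.23, 2.42 and 2.47 in C3aR-/- samples, against 2.67, 2.25 and 2.32 in WT samples. Cenpa gave -1.52, -1.34 and -1.35 in C3aR-/- samples, against -1.0, -1.45 and -1.49 in WT samples. All 4 genes had C3aR-/- replicate 1 as the lowest and WT replicate 1 as the highest array. Cenpe gave 0.36, 0.55 and 0.79 in C3aR-/- samples, against 0.98, 0.50 and 0.45 in WT samples. Cenpf gave -0.82, -0.61 and -0.46 in C3aR-/- samples, against -0.28, -0.64 and -0.60 in WT samples. The 4 differences lay between -0.12 and -0.042, and 3 of the 4 were above 0 without WT replicate 1.

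The kinesins Kif11, Kif20a and Kif23 are motors that separate spindle poles or build the central spindle for cytokinesis. Kif23, which acts in the central spindle, was probed at chromosome 9 between 61767733 and 61768853 (mm9), and gave -1.78, -1.80 and -1.35 in C3aR-/- samples, against -1.13, -1.59 and -1.34 in WT samples. C3aR-/- replicates 1 and 2 were the 2 lowest arrays, and C3aR-/- replicate 3 lay within the WT range. The difference was -0.29 ± 0.18 with an unadjusted p of 0.150, and 2 other kept Kif23 probes gave -0.063 ± 0.14 and -0.12 ± 0.18. Kif20a gave -0.89, -0.59 and -0.54 in C3aR-/- samples, against -0.17, -0.62 and -0.65 in WT samples. Kif11 gave -2.64, -3.23 and -2.80 in C3aR-/- samples, against -2.53, -2.97 and -2.88 in WT samples. Both overlapped between groups, with differences of -0.20 ± 0.17 and -0.096 ± 0.19.

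Tpx2 activates Aurora A on the spindle, Prc1 bundles the microtubules of the central spindle, Nusap1 binds spindle microtubules, and Hmmr is a spindle assembly factor. Tpx2 gave -0.75, -1.10 and -0.38 in C3aR-/- samples, against -0.041, -0.72 and -0.76 in WT samples. Its difference was -0.23 ± 0.26 with all arrays, -0.0025 without WT replicate 1 and -0.18 within row 1 of the slide. Prc1 gave 0.59, 0.85 and 1.07 in C3aR-/- samples, against 1.22, 0.83 and 0.63 in WT samples. Nusap1 gave -0.36, -0.18 and -0.11 in C3aR-/- samples, against 0.25, -0.050 and -0.64 in WT samples, so WT held both ends of the range. Hmmr gave -0.41, -0.23 and 0.029 in C3aR-/- samples, against -0.0011, -0.19 and -0.49 in WT samples. It was the single mitotic gene with a difference above 0, 0.025 ± 0.17, and its less bright kept probes gave 0.029 ± 0.13 and -0.054 ± 0.15.

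**Figure D3:**
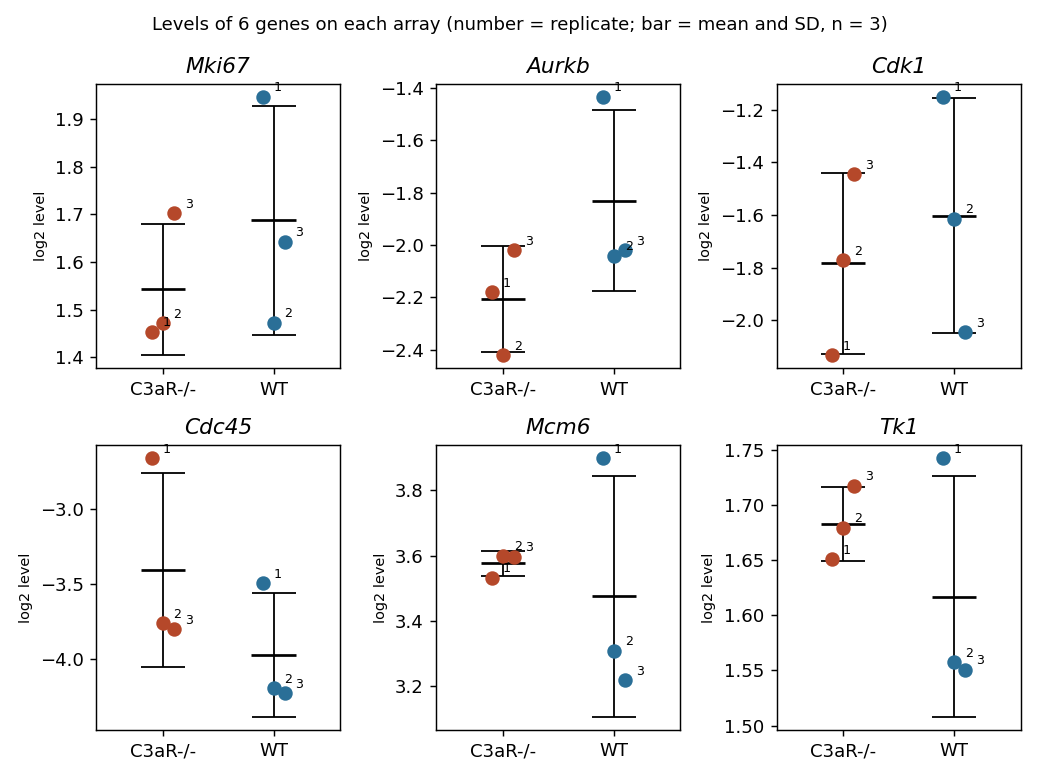
Levels of 6 genes on each array, as log2 signal relative to the array's 75th percentile, with C3aR-/- samples on the left and WT samples on the right of each panel. Points are arrays with their replicate number, and bars are the mean and SD of 3 arrays. The groups overlap in every panel, and WT replicate 1 is the highest point for Mki67, Aurkb, Cdk1, Mcm6 and Tk1, while C3aR-/- replicate 1 is the highest for Cdc45.

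Among S phase genes, Ccne1 encodes cyclin E1, which drives cells into S phase with Cdk2, and E2f1 encodes a transcription factor that switches on S phase genes. Ccne1 gave -0.25, -0.64 and -0.038 in C3aR-/- samples, against 0.49, -0.45 and -0.58 in WT samples. Its difference was -0.13 ± 0.31 with all arrays and 0.21 without WT replicate 1. E2f1 gave -0.25, 0.060 and -0.24 in C3aR-/- samples, against -0.26, -0.22 and -0.24 in WT samples. C3aR-/- replicate 2 stood alone above the other arrays, and E2f1 was the single gene with its lowest value in WT replicate 1. Its difference was 0.10 ± 0.12. Ccne2 had no test, and its signal of -2.69 in C3aR-/- replicate 1 was its highest.

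Cdc6 loads the replicative helicase at origins, Mcm2 to Mcm7 form the ring of that helicase, and Cdc45 joins the ring when it starts to unwind DNA. The 6 Mcm genes had the same highest array, WT replicate 1. Mcm2 gave 0.35, 0.36 and 0.46 in C3aR-/- samples, against 0.78, 0.29 and 0.22 in WT samples. Mcm3 gave 1.52, 1.31 and 1.78 in C3aR-/- samples, against 2.10, 1.27 and 1.40 in WT samples. Mcm4 gave 1.72, 1.45 and 1.79 in C3aR-/- samples, against 2.28, 1.45 and 1.49 in WT samples. For Mcm2 and Mcm3 the C3aR-/- values fell inside the WT range, and for Mcm4 C3aR-/- replicate 2 and WT replicate 2 shared the bottom of the range and differed little. Mcm5 gave 0.70, 0.48 and 0.85 in C3aR-/- samples, against 1.16, 0.56 and 0.46 in WT samples. Mcm7 gave 2.66, 2.57 and 2.78 in C3aR-/- samples, against 3.09, 2.57 and 2.74 in WT samples. The differences of these 5 genes lay between -0.13 and -0.041, and without WT replicate 1 they lay between 0.014 and 0.20. A far dimmer second Mcm7 probe, well above background on 2 C3aR-/- and 3 WT arrays, gave -0.59 ± 0.30, and the mean of the Mcm7 probes gave -0.36. That mean takes in the dim probe, which was detected on fewer C3aR-/- than WT arrays, so neither value is independent support.

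Mcm6 was the single Mcm gene with a difference above 0. Its probe (chromosome 1, 130228178 to 130228237, mm9) gave 3.53, 3.60 and 3.60 in C3aR-/- samples, against 3.90, 3.31 and 3.22 in WT samples. The C3aR-/- values were close together, above WT replicates 2 and 3 and below WT replicate 1. The difference was 0.10 ± 0.19 with all arrays (adjusted p = 0.954) and 0.31 without WT replicate 1, where the unadjusted p was 0.0190 and the adjusted p 0.982. A far dimmer second Mcm6 probe, well above background on 4 arrays, gave -0.27 ± 0.28.

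Cdc45 had the largest difference of all members, 0.56 ± 0.36, and the widest interval, from -0.31 to 1.43, or 0.809-fold to 2.69-fold. Its brighter probe is placed at chromosome 16 between 18793399 and 18794880 (mm9), a stretch of 1482 bases for a probe of 60. It gave -2.66, -3.76 and -3.80 in C3aR-/- samples, against -3.50, -4.19 and -4.22 in WT samples. C3aR-/- replicate 1 alone exceeded the WT range. The second Cdc45 probe gave -4.61, -4.43 and -4.27 in C3aR-/- samples, against -4.65, -4.62 and -4.40 in WT samples, and there C3aR-/- replicate 1 was the lowest of its group. That probe's difference was 0.12 ± 0.13. The brighter probe gave 0.19 without C3aR-/- replicate 1, so the probes disagreed on the array that set the difference. Cdc6 gave -2.47, -2.72 and -2.24 in C3aR-/- samples, against -1.83, -2.51 and -2.80 in WT samples, with a difference of -0.096 ± 0.27.

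Pcna is the sliding clamp that holds DNA polymerase on its template. It gave 3.28, 3.24 and 3.42 in C3aR-/- samples, against 3.69, 3.32 and 3.19 in WT samples, with WT at both ends of the range and a difference of -0.084 ± 0.15.

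Rrm1 and Rrm2 are the subunits of ribonucleotide reductase, and Tyms and Tk1 make thymidine nucleotides. Their 4 differences were all above 0 and small, from 0.012 to 0.11. Rrm2 gave 2.51, 2.68 and 2.76 in C3aR-/- samples, against 2.95, 2.36 and 2.32 in WT samples. The C3aR-/- values lay above WT replicates 2 and 3 and below WT replicate 1, as for Mcm6, and the difference was 0.11 ± 0.19 with all arrays and 0.31 without WT replicate 1. Tyms gave 2.45, 2.62 and 2.44 in C3aR-/- samples, against 2.54, 2.31 and 2.37 in WT samples. Tk1 gave 1.65, 1.68 and 1.72 in C3aR-/- samples, against 1.74, 1.56 and 1.55 in WT samples. The order of Tk1 again placed WT replicate 1 highest and the other WT arrays lowest, and its span over the 6 arrays, 0.19, was the smallest of the 39 genes. Rrm1 gave 0.98, 0.85 and 0.99 in C3aR-/- samples, against 1.18, 0.82 and 0.79 in WT samples, a difference of 0.012 ± 0.14.

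Mean levels over each class gave 1 value per array. Over the 24 mitotic genes the means were -0.40, -0.31 and -0.065 in C3aR-/- samples, against 0.16, -0.28 and -0.33 in WT samples. The group means were -0.26 ± 0.17 in C3aR-/- and -0.15 ± 0.27 in WT (SD, n = 3 each), a difference of -0.11 that is smaller than either SD. C3aR-/- replicate 3 lay above WT replicates 2 and 3, so the groups overlapped. Over the 15 S phase genes the means were 1.05, 0.92 and 1.08 in C3aR-/- samples, against 1.35, 0.83 and 0.79 in WT samples. All C3aR-/- values lay between WT replicate 2 and WT replicate 1, with group means of 1.02 ± 0.088 in C3aR-/- and 0.99 ± 0.31 in WT (SD, n = 3 each). No comparison of level is made between the classes, since signals of different probes are not on a common scale.

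Without WT replicate 1 the C3aR-/- minus WT difference of the class means was 0.044 for mitotic and 0.21 for S phase genes. Within row 1 of the slide, with C3aR-/- replicates 1 and 2 and WT replicates 2 and 3, it was -0.054 for mitotic and 0.17 for S phase genes. Within row 2, C3aR-/- replicate 3 minus WT replicate 1 was -0.22 for mitotic and -0.27 for S phase genes. The S phase mean thus had opposite signs in the 2 rows, and the mitotic mean had the same sign. Gene by gene, 17 of 24 mitotic and 1 of 15 S phase genes had a difference below 0 in row 1, against 43.5% of all genes. In row 2, where each group has 1 array, 21 of 24 mitotic and 14 of 15 S phase genes did, against 49.2% of all genes.

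**Figure D4:**
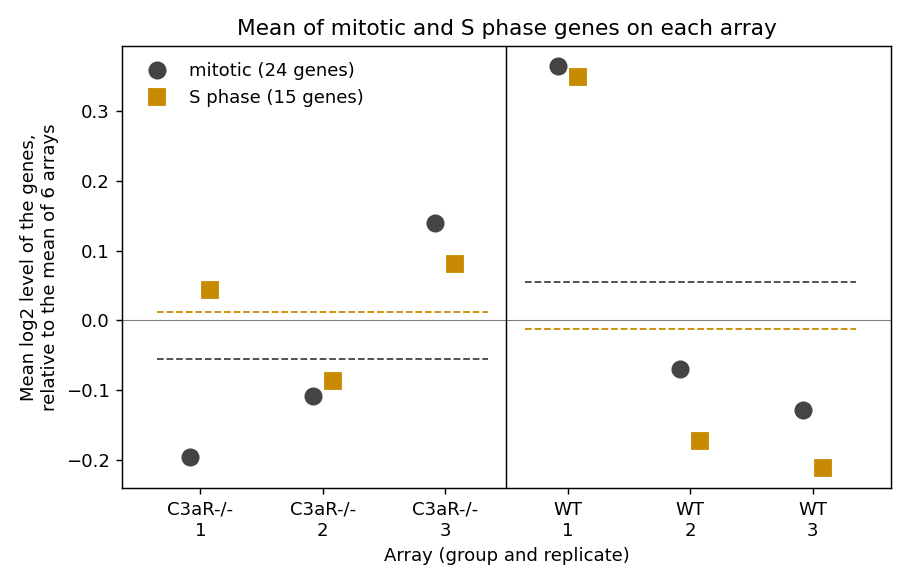
Mean log2 level of the 24 mitotic genes (circles) and the 15 S phase genes (squares) on each array, each relative to its own mean over the 6 arrays. Dashed lines are the group means. Both classes stand highest in WT replicate 1, and in the other 2 WT arrays the S phase mean lies below the C3aR-/- arrays.

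Mitotic genes were then set against S phase genes within each array, as the mitotic mean minus the S phase mean. This was -1.45, -1.23 and -1.15 in C3aR-/- samples, against -1.19, -1.11 and -1.13 in WT samples. The values averaged -1.28 ± 0.16 in C3aR-/- and -1.14 ± 0.046 in WT (SD, n = 3 each). C3aR-/- replicate 3 lay above WT replicate 1, so the groups overlapped. The difference of -0.14 was smaller than the C3aR-/- SD but larger than the WT SD. It was -0.16 without WT replicate 1 and -0.097 without Cdc45, whose high value in C3aR-/- replicate 1 lowers that array's figure, an alternative chosen after seeing the data. Within the slide rows it was -0.23 in row 1 and 0.044 in row 2.

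Other genes of the same processes were read from the same fit. Of 49 other genes of the kinetochore, spindle and cytokinesis, 48 were tested. Of the 48, 39 had a difference below 0, against 43.4% of all genes, and the median was -0.11. Without WT replicate 1, 13 of the 48 had a difference below 0, against 43.6% of all genes, and the median was 0.062. The 2 with the smallest p were Espl1, the gene of separase, which cuts cohesin at anaphase, at -0.26 ± 0.12, and Cenpm, a centromere protein gene, at -0.34 ± 0.20. Neither passed the adjusted threshold, and 0 of 48 had an unadjusted p below 0.05, against 4.89% of all genes.

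Of 49 other DNA replication genes, 32 had a difference below 0, against 43.4% of all genes, with a median of -0.018. An unadjusted p below 0.05 was found for 1 of the 49, against 4.89% of all genes. Without WT replicate 1, 12 of the 49 had a difference below 0, against 43.6% of all genes, and the median was 0.11. The gene below 0.05 was Pola1, the catalytic subunit of the polymerase that starts each new strand with primase. It gave -1.08, -0.92 and -0.98 in C3aR-/- samples, against -0.49, -0.62 and -0.56 in WT samples. All C3aR-/- values lay below all WT values, and the difference was -0.44 ± 0.097 (unadjusted p = 0.00342, adjusted p = 0.920) and -0.41 without WT replicate 1. Mcm10, a factor of origin firing, gave 0.19 ± 0.10 and was second by p. Its lowest C3aR-/- value, 0.358, lay just above its highest WT value, 0.357, so its groups did not overlap either.

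Among 37 cell cycle regulators, including E2F, Rb and DREAM genes, 18 had a difference below 0, against 43.4% of all genes. The median was 0.0071. Without WT replicate 1, 11 of the 37 had a difference below 0, against 43.6% of all genes, and the median was 0.082. The smallest p belonged to Lin52, a MuvB subunit, with 0.78, 0.74 and 0.72 in C3aR-/- samples, against 0.45, 0.60 and 0.33 in WT samples. Its groups did not overlap, and the difference was 0.29 ± 0.11 (unadjusted p = 0.0345, adjusted p = 0.931). Fbxo5, the gene of the anaphase-promoting complex inhibitor Emi1, gave -0.26 ± 0.12.

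Of 7 genes of CDK inhibitors, the brakes of the cycle, 5 had a difference below 0, against 43.4% of all genes. The median was -0.060. Without WT replicate 1, 4 of the 7 had a difference below 0, against 43.6% of all genes, with a median of -0.064. Cdkn2b, which encodes p15, an inhibitor of the cyclin D kinases, gave -0.16, -0.51 and 0.27 in C3aR-/- samples, against 1.0, 0.28 and 1.01 in WT samples. The highest C3aR-/- value lay just below the lowest WT value, and the difference was -0.90 ± 0.27 (unadjusted p = 0.0152, adjusted p = 0.931). It was -0.78 without WT replicate 1. Cdkn2a, the gene of p16 and p19Arf, gave -0.53 ± 0.25. In these 4 lists together, no gene passed the adjusted threshold. Groups that did not overlap, as for Pola1, Mcm10, Lin52 and Cdkn2b, occurred in 9.84% of all tested genes.

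Marker lists of other cell types varied across the same arrays. Relative to its mean over the 6 arrays, the injured or regenerating tubule list stood at -0.33, -0.48 and 0.0032 in C3aR-/- samples, against 0.79, -0.055 and 0.061 in WT samples. Like the proliferation classes, it was highest in WT replicate 1. The macrophage list ranged from -0.63 to -0.098 in C3aR-/- samples and from -0.12 to 0.61 in WT samples, and was also highest in WT replicate 1. The T cell list ranged from -0.91 to -0.19 in C3aR-/- samples and from 0.15 to 0.72 in WT samples, so its groups did not overlap. It was highest in WT replicate 3, the array that was lowest for most S phase genes. The proximal tubule list ranged from -0.061 to 0.59 in C3aR-/- samples and from -0.89 to 0.24 in WT samples, and was lowest in WT replicate 1. The erythroid, distal nephron and endothelium lists were lowest there too, at -0.76, -0.19 and -0.25. The podocyte list, the B and plasma cell list and the fibroblast and pericyte list had neither their highest nor their lowest mean in that array.

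By genotype, 13 of 13 macrophage, 13 of 14 T cell and 11 of 11 injured tubule markers had a difference below 0. Their medians were -0.59, -1.07 and -0.60, and 43.4% of all genes had a difference below 0. All 10 proximal tubule markers had a difference above 0, with a median of 0.34. Of B and plasma cell markers 6 of 7 had a difference below 0, with a median of -0.60, or -0.63 without WT replicate 1. All 6 erythroid markers had a difference above 0, with a median of 0.43, or 0.15 without that array. The medians of the podocyte, distal nephron, endothelium, and fibroblast and pericyte lists were 0.12, 0.065, 0.20 and -0.22. No gene of these lists passed the adjusted threshold. With limma, 7 of 13 macrophage, 12 of 14 T cell, 2 of 7 B and plasma cell and 3 of 11 injured tubule markers had an unadjusted p below 0.05. Of the proximal tubule markers 0 of 10 did, and of the erythroid markers 0 of 6, against 4.89% of all genes. Without WT replicate 1 the medians were -0.39 for macrophage, -1.04 for T cell and -0.21 for injured tubule markers, whereas those of both proliferation classes were above 0. The proximal tubule median was 0.087 without that array, with 3 of 10 markers below 0. The part of these cell types in the proliferation values was not tested.

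**Figure D5:**
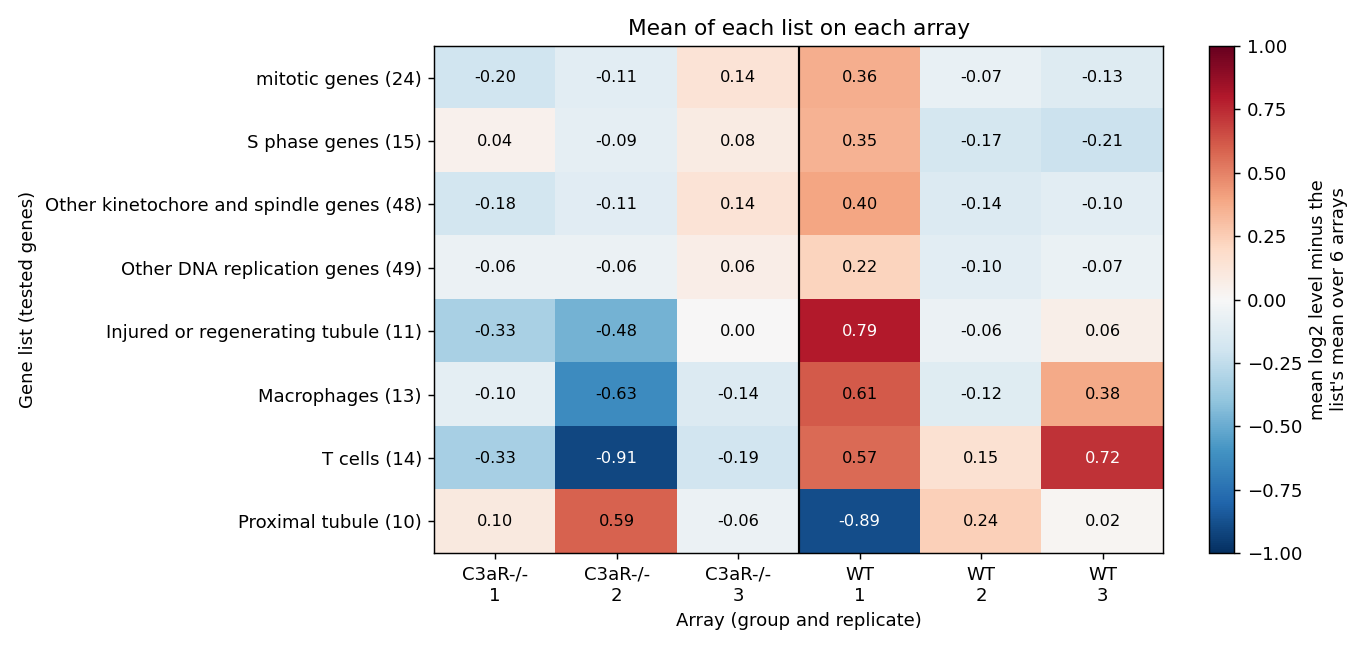
Mean log2 level of 8 gene lists on each array, relative to the list's mean over the 6 arrays, with the number of tested genes in brackets. WT replicate 1 is highest for both proliferation classes, for the other kinetochore and replication genes, and for injured tubule and macrophage markers, and lowest for proximal tubule markers at -0.89.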

How the data were processed

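Groups were taken from the sample titles, 3 C3aR-/- and 3 WT diabetic samples. Each array holds 62976 spots laid out from mm9, and was read, per the file headers, with version 10.7.1.1 of Agilent Feature Extraction. The deposited intensity values used are the scanner's processed signal, from which background and spatial trend had been removed, per the file headers, with no step that makes arrays alike. The authors' deposited table, used as an alternative, holds log2 values with the same distribution in every array (median 5.73). The sources used here do not say how that table was made. Other columns of the deposited files, per the file headers, are scanner flags and local background.

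All arrays lay on 1 slide in 1 scan, so neither could be fitted as a block. Control spots and outlier spots were left out, 6 probes were lost to those flags, and 0 were saturated. Between 58.6% and 63.0% of probes were well above background per array, and the number of arrays limits the precision. Accessions gave 32992 of the probes a current RefSeq symbol, and 23607 kept the file's name. Of 56605 probes, the 34778 well above background on at least 3 arrays were kept, and each of 22741 genes was read from its kept probe with the highest mean, which set 7862 genes with more than 1 kept probe. Of the proliferation genes, 17 had more than 1 kept probe, and 3 of these (Ccnb1, Hmmr and Mcm6) had a probe with a difference of opposite sign. The scaled log2 signal minus each array's 75th percentile was tested with limma 3.58.1 in R 4.3.3, as lmFit and eBayes, with Benjamini-Hochberg adjustment over all tested genes. The script was tested on simulated data with known differences.

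The members, other lists and tests were chosen with earlier results of these data known, so no list was tested as a set, and the direction of the lists is not independent support. All members may be named, and the 2 genes of smallest p of each other cell cycle list are named. Markers of cell types are given as lists only. Promoters were printed for members of highest mean signal with the motif of their class. An mm9 annotation was not used here, so probes are given by position without exon. Alternatives covered scaling, background correction, the authors' table, filters, probe averaging, variance models, array weights, blocks and each array left out.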

Additional observations from a re-analysis of the deposited data

How the results depend on the processing

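No gene passed an adjusted p of 0.05 with limma under any of the 19 alternatives, and the smallest adjusted p of a member under any of them was 0.507. Of 741 member values over these alternatives, 103 turned in sign, many of them by less than the spread between replicates, and 10 moved by more than that spread, 7 of which also turned. An unadjusted p below 0.05 occurred in 10 of the 741. Scaling by quantiles or by the median, normexp background correction, the authors' table and stricter detection turned the sign of 0 members.

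Member counts with an unadjusted p below 0.05, which stood at 0, were 1 of 39 with array weights (Cdc45; 9.3% of all genes passed), 2 with slide row as a block (Aurkb and Kif23; 7.66% of all genes) and 3 without WT replicate 1 and C3aR-/- replicate 2 together (Ccne1, Mcm4 and Mcm6; 8.9% of all genes). With each array left out in turn the count ran from 0 to 2, with Kif23 named without C3aR-/- replicate 3 (5.2% of all genes), and Mcm6 and Rrm2 without WT replicate 1 (4.89% of all genes). The S phase median was 0.27 without those 2 arrays together and the mitotic median 0.080. Across the arrays left out singly, the mitotic median ran from -0.18 to 0.068, the S phase median from -0.15 to 0.17, and the mitotic minus S phase difference from -0.20 to -0.049. Sign turns numbered 26 of 39 members without WT replicate 1 and C3aR-/- replicate 2 together, 23 without WT replicate 1, 14 with array weights, where the S phase median was 0.12, 13 within slide row 1, 10 without C3aR-/- replicate 1 and 8 without C3aR-/- replicate 2. Under each remaining alternative they numbered from 0 to 4. With no detection filter, which admits Ccne2, the mitotic minus S phase difference was -0.26. The cause of these shifts was not tested.

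With the replicate number as a block, 1 member (Cdc45, unadjusted p = 0.00977) passed an unadjusted p of 0.05, where 7.02% of all genes did, and no other call changed. The correlations of same-numbered samples' deviations from their group means were 0.13, 0.41 and -0.093 for replicates 1, 2 and 3, so the numbers were not taken to pair the samples.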
